A study of Mus musculus with 5 samples.

Results

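The imprinted regions of Peg10 and Sgce, of Mest, and of Peg3 and Usp29 were followed through stem cells, germ cells and germ cell-like cells of the mouse. The regions were chosen by position in the build mm10. Every CpG island (CGI) or island shore, the flank of an island, that touched chromosome 6, 4650000 to 4800000, chromosome 6, 30730000 to 30755000, or chromosome 7, 6700000 to 6760000 was taken. This gave 4 regions of the 33121 islands and shores listed in at least 1 library, and all 4 were listed in every library, as were 30910 islands and shores in all. CpG methylation had been read by reduced representation bisulfite sequencing, which digests the DNA with MspI and so samples its CpG-rich part. Each value is the methylation level of a region, given as the percentage of CpG cytosines read as methylated.

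There were 5 groups, each with 1 library, all of the strain C57BL6. pESC-PGCLC and ESC-PGCLC were germ cell-like cells induced from the parthenogenetic and the female line. The lines had first been passaged in t2iL medium, a 2i and LIF medium with less of the inhibitor PD0325901. Induction then took 46 h of epiblast-like culture on fibronectin with activin A and bFGF and 4 days of floating culture with BMP4, LIF, SCF and EGF, and cells carrying CD61 and SSEA1 were sorted by flow cytometry. PGC were primordial germ cells taken from fetal gonads at stage E12.5 with SSEA1 magnetic beads, from embryos of unstated sex. pESC were a parthenogenetic embryonic stem cell line, whose genome comes from an egg alone, and Female ESC were a female embryonic stem cell line with a maternal and a paternal genome. Both lines were kept on feeder cells in serum and LIF, so a comparison of PGCLC with the line of origin also crosses a change of medium. The labels do not say how many lines or animals stand behind a library. No level has a replicate error and no difference has a p-value. Read depth is unknown, because levels came without read counts. In such bulk DNA, fewer cells with a methylated copy and less methylation per copy cannot be told apart.

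Genomic imprinting leaves methylation on the copy of a gene that came from 1 parent, and the gene is then read mainly from the other copy. The regions of Peg10 and Sgce, of Mest and of Peg3 and Usp29 are known to gain methylation in the growing oocyte, and the genes are expressed from the paternal copy. Primordial germ cells erase such marks before new ones are laid down according to the sex of the embryo. Outside the germ line the marks are kept in part by ZFP57, a zinc finger protein that binds the hexamer TGCCGC when its CpG is methylated.

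The Peg10 and Sgce island lay on chromosome 6 at 4747208 to 4748412 and was 1205 bases long. Peg10, a gene derived from a retrotransposon and needed for the placenta, covered 1107 of these bases. Sgce, which encodes epsilon-sarcoglycan, a membrane protein of the dystrophin-associated complex, is transcribed away from Peg10 on the opposite strand. Its 5′ end, the highest annotated base of the gene, lay 4 bases below the island, so 1 island stands for both genes. Mest, which encodes a protein of the alpha/beta hydrolase fold, was represented by a shore at 30738499 to 30740500 of the same chromosome, which lay wholly inside the gene. Of all shores, 92.6% touched a listed island, while 0 listed islands touched the Mest shore. No island in the Mest window was listed in any library. The Peg3 and Usp29 island lay on chromosome 7 at 6730062 to 6730398. Its 337 bases were all inside Peg3, which encodes a zinc finger protein, and Usp29, which encodes a ubiquitin-specific protease, had its outermost annotated base 161 bases beyond it, at 6730559. Exon and intron limits were not used here.

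The fourth region was a shore of 2002 bases at 6729785 to 6731786 that contained the whole Peg3 and Usp29 island. Its level equalled that of the island in every library to within 1e-06 percentage points, so the 2 regions are 1 measurement. This was so for 176 of the 1257 shores that contained a whole island. The 4 regions therefore held 3 distinct measurements, and the Peg3 and Usp29 values below are given once. Counts and medians over the 4 regions still include both the island and the shore, so they weigh this measurement more than the others.

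Promoter sequences from RefSeq (GRCm38.p6, the assembly of mm10) are shown to place the measured DNA. The table matched 3 of the 5 genes, Mest, Peg3 and Usp29. It takes starts of single transcripts, which can lie inside the outer limits of a gene, as that of Usp29 does. The first sequence is the 250 bases before that transcript start, which lie wholly inside the shore and overlap the island by 66 bases. Capitals mark each CpG, the site at which methylation is read.
Usp29, chr7:6730333-6730582, plus strand: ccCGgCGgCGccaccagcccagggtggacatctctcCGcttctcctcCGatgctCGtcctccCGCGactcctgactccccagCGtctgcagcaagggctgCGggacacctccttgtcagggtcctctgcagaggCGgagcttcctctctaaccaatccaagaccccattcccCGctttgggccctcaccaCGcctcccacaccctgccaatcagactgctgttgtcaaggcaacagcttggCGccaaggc
Mest, chr6:30737803-30738052, plus strand: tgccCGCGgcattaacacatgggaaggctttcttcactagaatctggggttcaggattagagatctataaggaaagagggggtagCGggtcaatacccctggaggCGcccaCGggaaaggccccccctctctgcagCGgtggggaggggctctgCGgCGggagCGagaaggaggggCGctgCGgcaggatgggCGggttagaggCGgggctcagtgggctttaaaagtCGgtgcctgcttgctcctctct

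The second is the Mest window nearest to the measured shore. Each of these windows held 14 CpGs, against a median of 6 over 32851 promoter windows of that length. The Peg3 window lay on the opposite strand, shared 163 bases with that of Usp29 and held 8 CpGs. The MspI site CCGG, at which the assay cuts, was found 1 time in the Usp29 window and 0 times in the printed Mest window, and 47.1% of all windows held it on either strand. The hexamer TGCCGC was searched on both strands. Its reverse complement GCGGCA occurred 2 times in the printed Mest window, which lay 447 bases before the measured shore. The window at the outer start of Mest, 4994 bases before the shore, held 7 CpGs and 0 hexamers, and neither form was found in the Peg3 or Usp29 windows. Of all windows, 8.68% held the hexamer.

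Levels spread widely across the libraries at each region. The Peg10 and Sgce island had a CpG methylation level of 34.3% in pESC-PGCLC, 3.22% in ESC-PGCLC, 33.1% in PGC, 39.1% in pESC and 3.25% in Female ESC. At the Mest shore the level was 48.4% in pESC-PGCLC, 4.12% in ESC-PGCLC, 36.9% in PGC, 53.7% in pESC and 6.59% in Female ESC. The Peg3 and Usp29 island stood at 58.8% in pESC-PGCLC, 12.2% in ESC-PGCLC, 50.3% in PGC, 65.7% in pESC and 36.2% in Female ESC. At all 3 regions pESC, pESC-PGCLC and PGC were high and the biparental line and its PGCLC were low, with the exception that Peg3 and Usp29 kept an intermediate level in Female ESC. No library lacked CpG methylation at any of these regions, and none was near full methylation.

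**Figure D1:**
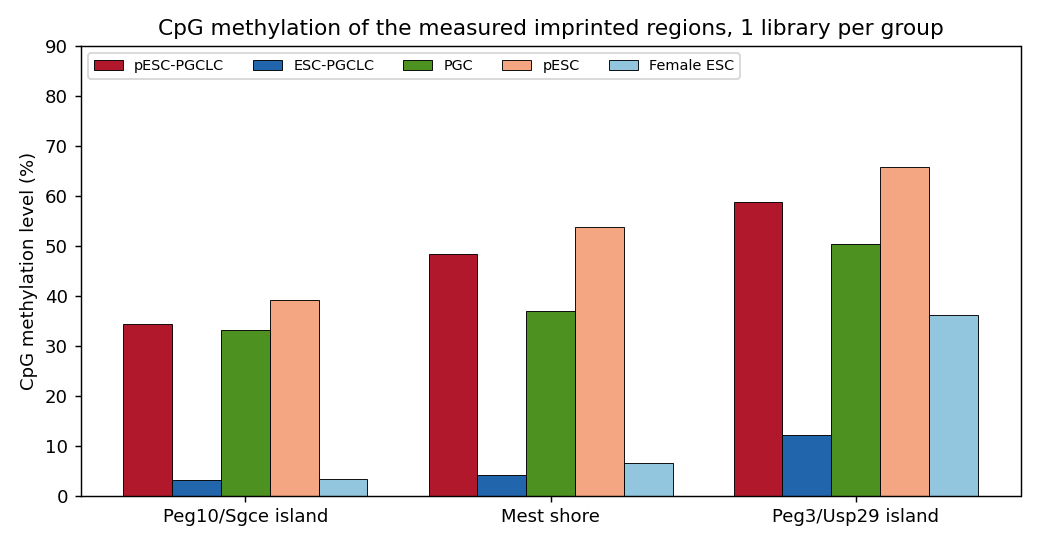
CpG methylation level in percent (vertical axis) of the Peg10 and Sgce island, the Mest shore and the Peg3 and Usp29 island in 5 libraries; each bar is 1 library, so there are no error bars. The ESC-PGCLC bars, from 3.22% to 12.2%, are the lowest at each region and the pESC bars, from 39.1% to 65.7%, the highest.

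The libraries took the same order at all 3 regions, with pESC highest, then pESC-PGCLC, PGC, Female ESC and ESC-PGCLC. This order was seen at 0.387% of the 14214 islands and 0.509% of the 16696 shores listed in every library. Among the 53 islands whose highest and lowest library differed by at least 25 percentage points, 8 had it, and among the 270 such shores 9 did, the members included. Neighbours in that order were often close: pESC-PGCLC and PGC were 1.18 points apart at Peg10 and Sgce, and ESC-PGCLC minus Female ESC was -0.0312 points. With 1 library a group, such gaps cannot be told from error.

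The regions also kept 1 order among themselves in every library, with Peg3 and Usp29 highest, Mest next and Peg10 and Sgce lowest. The gap from Mest to Peg3 and Usp29 was 10.4 points in pESC-PGCLC, 8.05 in ESC-PGCLC, 13.4 in PGC, 12.0 in pESC and 29.7 in Female ESC. Mest exceeded Peg10 and Sgce by 14.1 points in pESC-PGCLC and 14.6 in pESC, but by 0.894 points in ESC-PGCLC, 3.82 in PGC and 3.34 in Female ESC. The level of Peg3 and Usp29 was 1.71 times that of Peg10 and Sgce in pESC-PGCLC, 3.78 times in ESC-PGCLC, 1.52 times in PGC, 1.68 times in pESC and 11.1 times in Female ESC. In ESC-PGCLC and Female ESC these ratios divide by low levels, 3.22% and 3.25%, so a small error there would move them much. Levels of different regions rest on different CpGs, and the number read in each is not known.

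Island medians lay between 1.48% and 1.65% over the 5 libraries and shore medians between 4.23% and 4.54%. In pESC-PGCLC, PGC and pESC each imprinted region was far above the median of its class. In the biparental libraries this held for Peg3 and Usp29, while Mest stood at 4.12% in ESC-PGCLC and 6.59% in Female ESC, beside shore medians of 4.26% and 4.35%, and Peg10 and Sgce at 3.22% and 3.25%, beside island medians of 1.65% and 1.54%. The range from the highest to the lowest library was 35.9 points at Peg10 and Sgce, where 17 of 14214 islands had a range at least as wide, that one included. It was 53.6 points at Peg3 and Usp29, where 4 islands did, and 49.6 points at Mest, where 18 of 16696 shores did.

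The first comparison set the parthenogenetic stem cells beside the biparental ones. The difference depends on the level of both lines. Female ESC, which also has a maternal genome, was low at Mest and, at 3.25%, at Peg10 and Sgce. How far that line had kept the maternal mark was not tested. The level of the Mest shore was 53.7% in pESC, against 6.59% in Female ESC, a difference of 47.1 points and an 8.14-fold higher level. Peg10 and Sgce were 35.9 points higher in pESC, a 12.0-fold difference, and Peg3 and Usp29 29.5 points, a 1.81-fold difference. A region was called when 2 libraries differed by at least 25 points. All 4 regions were called higher, while 0.149% of all islands and shores were called higher and 0.139% lower. Only 4 of 16696 shores differed upward by as much as Mest, that one included, and 7 of 14214 islands by as much as Peg10 and Sgce. The median difference over the 4 regions was 32.7 points, or 35.9 with Peg3 and Usp29 counted once, against -0.159 over all islands and shores.

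The same contrast after induction gave pESC-PGCLC against ESC-PGCLC, which shares no library with the first. The PGCLC came from those same lines, however, so it is not an independent repeat of the difference between the lines. Again all 4 regions were called higher in the parthenogenetic cells, where 0.1% of all islands and shores were called higher and 0.0356% lower. Peg3 and Usp29 stood at 58.8% in pESC-PGCLC, against 12.2% in ESC-PGCLC, 46.7 points apart, and 3 of 14214 islands differed upward by as much, that one included. Mest was 44.3 points higher in pESC-PGCLC, and Peg10 and Sgce 31.1 points. The order of the regions by difference was not that of the stem cells: Peg3 and Usp29 had the smallest difference between the lines and the largest between the PGCLC. The median over the 4 regions was 45.5 points, or 44.3 with Peg3 and Usp29 counted once, against -0.0182 over all islands and shores.

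**Figure D2:**
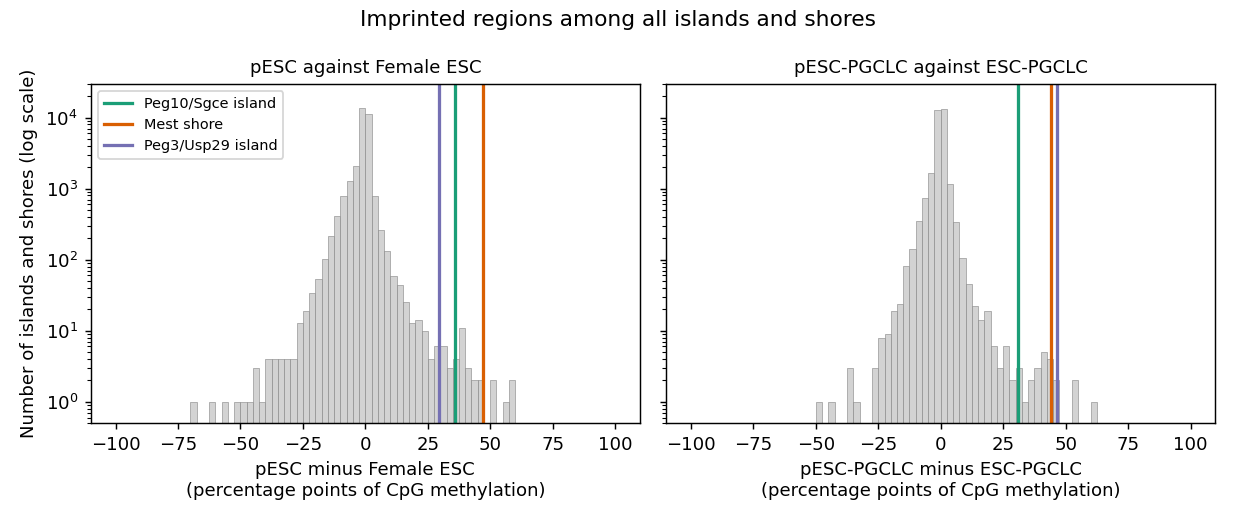
Number of islands and shores (vertical axis, log scale) by difference in CpG methylation in percentage points (horizontal axis), for pESC minus Female ESC on the left and pESC-PGCLC minus ESC-PGCLC on the right. Vertical lines mark the imprinted regions, which lie between 29.5 and 47.1 points on the left and between 31.1 and 46.7 points on the right, outside the bulk of the distribution around 0.

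Fetal germ cells were then set against each kind of PGCLC. These comparisons share the PGC library. ESC-PGCLC were lower than PGC at all 4 regions by more than 25 points, where 0.0938% of all islands and shores were called lower and 0.0518% higher. The level of Peg3 and Usp29 was 12.2% in ESC-PGCLC and 50.3% in PGC, a difference of -38.2 points. The difference was -32.8 points at Mest and -29.9 at Peg10 and Sgce, so that the ESC-PGCLC level was between 9.73% and 24.2% of the PGC level. Over the 4 regions the median difference was -35.5 points, or -32.8 with Peg3 and Usp29 counted once, against 0.232 over all islands and shores.

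In pESC-PGCLC against PGC, 0 of the 4 regions were called, and 0.0679% of all islands and shores were called in either direction. Mest stood at 48.4% in pESC-PGCLC, against 36.9% in PGC, 11.5 points apart, Peg3 and Usp29 were 8.48 points apart and Peg10 and Sgce 1.18 points. Of 14214 islands, 942 differed upward by at least as much as Peg10 and Sgce did. The median of the 4 differences was 8.48 points, against 0.224 over all islands and shores. It was 5.45 points with the class means of the 2 libraries made equal, where Peg10 and Sgce turned to -0.589 points, and 4.83 points over islands alone. How far other gonadal cells entered the bead-sorted PGC was not measured.

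Against the stem cells, PGC lay between the lines at every region. PGC exceeded Female ESC by 30.3 points at Mest, 29.9 at Peg10 and Sgce and 14.1 at Peg3 and Usp29, so 2 of the 4 regions were called higher, where 0.116% of all islands and shores were. Of all islands and shores, 0.56% were at least 25 points lower in PGC. With class means made equal, that balance of 36 higher and 173 lower became 43 higher and 28 lower. Against pESC, PGC differed by -16.8 points at Mest, -15.4 at Peg3 and Usp29 and -5.99 at Peg10 and Sgce; with class means made equal, Mest differed by -10.1 points. None of the 4 regions was called in PGC against pESC, where 0.116% of islands and shores were called in either direction.

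**Figure D3:**
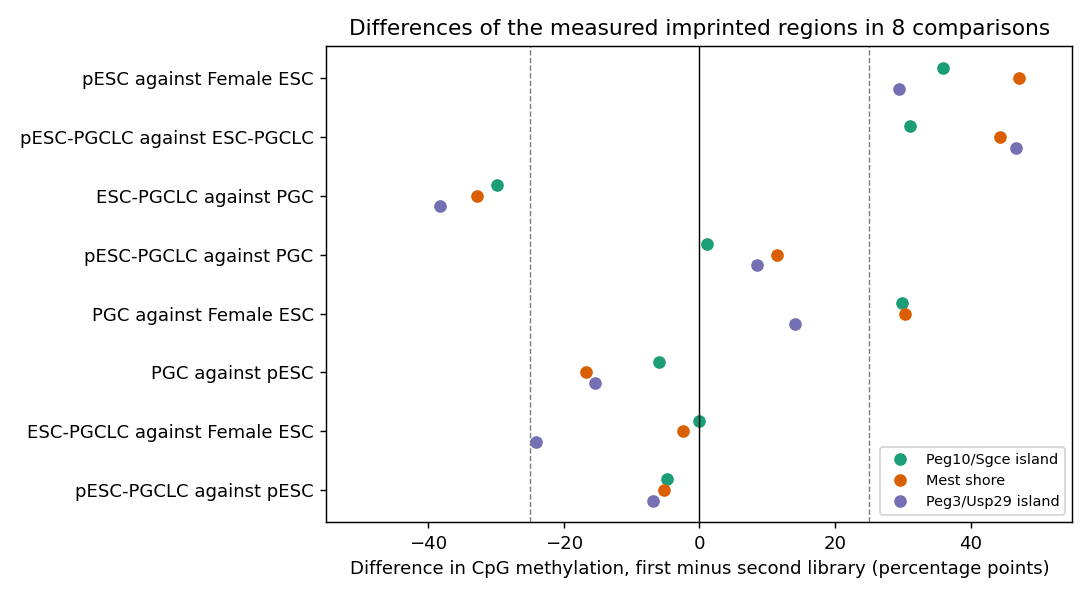
Difference in CpG methylation in percentage points (horizontal axis) of the imprinted regions in 8 comparisons of 2 libraries, first minus second; each point is 1 region and dashed lines mark 25 points either way. All regions lie beyond a dashed line in pESC against Female ESC, pESC-PGCLC against ESC-PGCLC and ESC-PGCLC against PGC; in ESC-PGCLC against Female ESC, Peg3 and Usp29 lie at -24.1 points, just inside the line.

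Each PGCLC library was then set against its own line, a contrast that takes in induction, the change of medium and the sorting together. In the parthenogenetic cells the level in pESC-PGCLC was 87.7% of that in pESC at Peg10 and Sgce, 90.2% at Mest and 89.5% at Peg3 and Usp29. These are differences of -4.81, -5.26 and -6.89 points, or -5.20, -1.74 and -7.54 points with class means made equal. In this comparison 0 of the 4 regions were called, while 0.0971% of all islands and shores were called in either direction. In the biparental cells the regions parted. Peg3 and Usp29 were at 12.2% in ESC-PGCLC and 36.2% in Female ESC, a difference of -24.1 points, which left 33.6% of the stem cell level. This value was 0.912 points short of the call, and 9 of 14214 islands differed downward by as much, that one included. Among shores, where the same measurement is also listed, 65 of 16696 did. The number of reads behind it is not known. Mest differed by -2.48 points and Peg10 and Sgce by -0.0312 points, where levels of 6.59% and 3.25% in Female ESC bound any lower value. Again 0 of the 4 regions were called, where 0.288% of islands and shores were called in either direction. The change in the pESC line minus that in the Female ESC line was 17.2 points at Peg3 and Usp29, -2.78 at Mest and -4.78 at Peg10 and Sgce, and this difference of differences has no test.

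Non-CpG cytosines, which report unconverted bases or methylation outside CpG, were low in the same regions. CHG and CHH levels lay between 0% and 2.86% over all libraries. The highest, 2.86%, was the CHH level of Peg3 and Usp29 in pESC, where the CHG level was listed at 0 in all 5 libraries and the CHH level at 0 in pESC-PGCLC and Female ESC. At Peg10 and Sgce the CHH level was 1.23% in pESC-PGCLC, 0.488% in ESC-PGCLC, 0.992% in PGC, 0.656% in pESC and 0.697% in Female ESC. These spreads were small beside the CpG differences between the lines.

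Regions at the genes around these were not called in any comparison. Of 16 genes listed as neighbours, 10 had an island or shore, 17 regions in all, and 0 of the 17 reached 25 points in any of the 8 comparisons. The regions of Calcr and Pon2 lay more than 500 kb from the Peg10 and Sgce island. At most 0.56% of all islands and shores were called in 1 direction in any comparison, so this count does not set the neighbours apart. The island at Zim1, a zinc finger gene beside Peg3, was at 2.30% in pESC-PGCLC, 2.47% in ESC-PGCLC, 2.18% in PGC, 2.75% in pESC and 2.28% in Female ESC, and it lay 33.7 kb from the Peg3 and Usp29 island. The island at Copg2, which encodes a coat protein subunit and lies beside Mest, was at 1.71% in pESC-PGCLC and 1.27% in Female ESC, its highest and lowest libraries. Casd1, a sialic acid O-acetyltransferase gene next to Sgce, had an island at 2.52% in pESC-PGCLC and 2.44% in ESC-PGCLC, and its shore differed more, with 13.7% and 4.13%. Within 500 kb of the imprinted regions there were 3 islands and shores around Peg10 and Sgce, 18 around Mest and 10 around Peg3 and Usp29. Their widest ranges over the libraries were 10.7, 4.99 and 20.7 points.

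**Figure D4:**
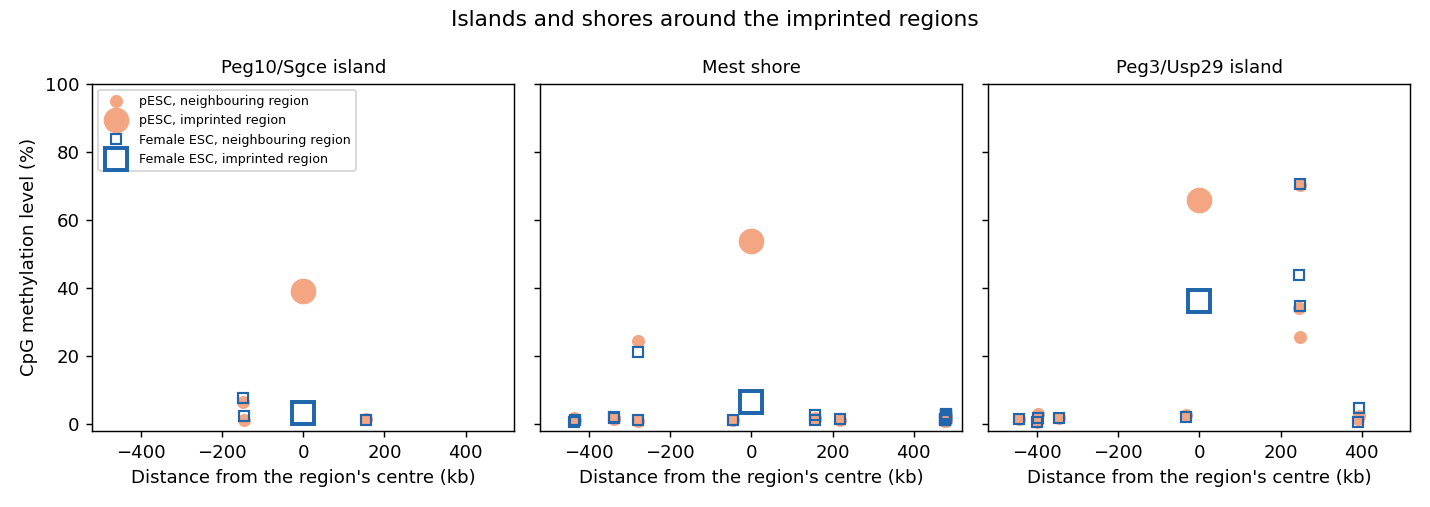
CpG methylation level in percent (vertical axis) of islands and shores by distance in kb from the centre of each imprinted region (horizontal axis), in pESC (filled circles) and Female ESC (open squares); large symbols are the imprinted regions. The 2 libraries differ at the imprinted regions by 35.9, 47.1 and 29.5 points from left to right, with pESC above. At the 3 regions of Zim3, between 246 and 248 kb from the Peg3 and Usp29 island, Female ESC is the higher one. At the last of these the levels nearly coincide, at 70.7% in Female ESC and 70.4% in pESC.

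Other genes with maternally inherited methylation were counted in the same way. Of 14 such genes 13 had a region, 41 regions in all, though these include islands of the same genes that carry no imprint. Some of the 41 overlap, and 1 Gnas shore had the same level as a Gnas island in every library. They are therefore not 41 separate measurements. In pESC against Female ESC, 20 of the 41 were called higher and 0 lower, with a median difference of 23.7 points. Of all islands and shores, 0.149% were called higher there. After induction, in pESC-PGCLC against ESC-PGCLC, 19 were higher and 0 lower (median 20.3 points), where 0.1% of all islands and shores were higher. ESC-PGCLC against PGC gave 16 lower and 0 higher (median -18.5 points), where 0.0938% of all islands and shores were lower. In pESC-PGCLC against PGC 0 were called, where 0.0679% of all were called in either direction. PGC against pESC gave 2 lower and 0 higher, down to -34.1 points, where 0.116% of all were called in either direction. None of the members was called there. PGC against Female ESC gave 12 higher and 0 lower, where 0.116% of all were higher. In ESC-PGCLC against Female ESC the lowest difference among the 41 was -13.5 points, which the -24.1 points of Peg3 and Usp29 exceeded in size. Many of the 41 could not have fallen as far, such as an Airn island at 2.01% in Female ESC. Others could, such as the Peg13 island, at 36.9% in Female ESC and 33.0% in ESC-PGCLC. Of 5 genes with paternally inherited methylation, 3 had a region, while H19 and Meg3 had none. Their 9 regions lay between 0% and 35.0%, and 0 were called in any comparison. At most 0.56% of all islands and shores were called in 1 direction. Whether any of the 9 carries the imprint was not tested, and the Rasgrf1 island stayed between 1.42% and 2.35%. The count therefore does not show how paternal imprints differ between the libraries.

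The islands most like each member over the 5 libraries were sought among 51 islands outside the windows with a range of at least 25 points, by Pearson's r over 5 values as a description. For Peg10 and Sgce the closest were the island of Plagl1, a zinc finger gene (r = 0.996), and that of Airn inside Igf2r (0.994), followed by an island of Gnas (0.992) and 2 of Zrsr1 (0.990 and 0.987). For Mest they were Peg13 inside Trappc9 (0.999) and Impact (0.996), followed by Nap1l5 (0.991), Airn (0.988) and Gnas (0.987). Peg3 and Usp29 stood closest to an island within Mid1, a ubiquitin ligase gene of the X chromosome (0.993), with 38.2% in pESC-PGCLC, 11.3% in ESC-PGCLC, 35.8% in PGC, 46.8% in pESC and 25.7% in Female ESC, and next to Inpp5f (0.983). Both also had an intermediate level in Female ESC and a lower one in ESC-PGCLC. The other 3 were an island at the gene model Gm52481 on the Y chromosome (0.965) and those of Nap1l5 (0.963) and Gnas (0.940). The Y island was also listed in the female and parthenogenetic cells, at 45.6% in Female ESC, 60.9% in pESC and 55.3% in pESC-PGCLC. Where the reads assigned to it came from was not tested. All 5 points of each r come from the same libraries, and the islands compared were selected for a wide range.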

How the data were processed

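Reduced representation bisulfite sequencing libraries of 5 groups were used, 1 library each. The submitters' processing notes name Bismark 0.16.3, Bowtie2 and the build mm10; the trimming, any coverage filter and the drawing of regions are not stated there. Each deposited value is the methylated fraction (0 to 1) per region, class and cytosine context, per the file headers, with no read counts, so no interval, floor or test could be made. Levels are printed as percent. Coordinates are those of the deposited regions, whose counting base is not stated.

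Differences of levels were computed in Python 3.11.15 with pandas 2.3.3 over islands and shores listed in all 5 libraries, and called at 25 points with no p-value. The call was run on deposited levels with known changes added, which checks its arithmetic only. It gives no error rate for these libraries, whose read depth is unknown. Genes were tied to regions overlapping them or within 1000 bp, with RefSeq coordinates. Promoter rows carry Ensembl identifiers that were not paired with symbols here and were not used. The members, lists and comparisons were chosen with earlier results of these data known. All members are named, together with neighbouring and other imprinted genes from fixed lists and, the 5 islands most like each member. Alternatives were other thresholds, levels less the mean CHH level, class means made equal, regions common to 2 libraries, regions wholly inside a window, islands or shores alone, and regions at exactly 0 or 1 left out. Counting the Peg3 and Usp29 regions once was added after seeing the data.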

Additional observations from a re-analysis of the deposited data

How the results depend on the processing

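No paired analysis was possible because each group had 1 library and no result came from a test; leaving out a replicate was not possible for the same reason. Directions of the median over the 4 regions were the same under every alternative run. With islands alone or shores alone, each with 2 regions, 2 were called wherever 4 had been, and 1 was called higher in PGC against Female ESC. At 40 points, 1 region was called higher in pESC against Female ESC, 3 higher in pESC-PGCLC against ESC-PGCLC, 0 lower in ESC-PGCLC against PGC and 0 higher in PGC against Female ESC. At 10 points, 1 was called higher in pESC-PGCLC against PGC, 4 higher in PGC against Female ESC, 3 lower in PGC against pESC and 2 lower in ESC-PGCLC against Female ESC. The median difference of PGC against Female ESC, 22.0 points, passed 25 points at 26.0 with class means made equal and at 29.9 with Peg3 and Usp29 counted once. With class means made equal, Peg10 and Sgce turned to -0.589 points in pESC-PGCLC against PGC and to 0.166 points in ESC-PGCLC against Female ESC; both differences were near 0 before. The same scaling moved the balance of calls over all islands and shores: 51 were higher and 24 lower in pESC against Female ESC (46 and 43 as deposited), 10 and 38 in ESC-PGCLC against PGC (16 and 29), 11 and 12 in pESC-PGCLC against PGC (14 and 7), 43 and 28 in PGC against Female ESC (36 and 173), 14 and 12 in PGC against pESC (12 and 24), and 26 and 30 in ESC-PGCLC against Female ESC (23 and 66). With class means made equal the median of PGC against pESC was -8.65 points (-15.4 as deposited), that of pESC-PGCLC against pESC -3.90 (-6.07), and Mest in ESC-PGCLC against Female ESC -1.63 (-2.48). With Peg3 and Usp29 counted once, the median of ESC-PGCLC against Female ESC was -2.48 points (-13.3). The unknown read depth limits every value.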

Other observations

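At the far end of the Peg3 domain, an island of 217 bases at Zim3, a long noncoding RNA gene, lay 247 kb from the Peg3 and Usp29 island, and its level did not follow the imprinted one. It was at 24.2% in pESC-PGCLC, 29.3% in ESC-PGCLC, 26.0% in PGC, 25.8% in pESC and 34.7% in Female ESC. The shore before it was at 23.1% in pESC-PGCLC, 37.1% in ESC-PGCLC, 25.2% in PGC, 34.1% in pESC and 43.9% in Female ESC. The shore after it was at 59.7% in pESC-PGCLC, 66.7% in ESC-PGCLC, 63.9% in PGC, 70.4% in pESC and 70.7% in Female ESC. At the island and each shore, Female ESC was the highest library and pESC-PGCLC the lowest, though pESC was almost level with Female ESC at the last shore. At the Peg3 and Usp29 island pESC was the highest and ESC-PGCLC the lowest.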
